A study of Mus musculus with 30 samples.

Results

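Lfng and 9 genes of the Notch pathway were followed through 30 mouse libraries of stromal cells from bone, lung and brain. The genes were chosen by name, with earlier results of these data known: the fringe enzyme Lfng, the receptors Notch1, Notch2, Notch3 and Notch4, the ligands Dll1, Dll4 and Jag1, and the target genes Hes1 and Hey1. They are 10 of the 43346 genes in the table of raw counts, and all 10 passed the filter on low counts in every comparison. Lfng was included with its levels in the bone libraries already in view, so its difference between exposed and control bone is given as a description with no test.

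Notch receptors are cell-surface proteins that are cut when a Delta or Jagged ligand on a neighbouring cell pulls on them. ADAM proteases and then the γ-secretase complex release the intracellular part, which enters the nucleus, joins the DNA-binding protein RBPJ and turns on genes of the Hes and Hey families. Fringe enzymes such as Lfng add a sugar to the O-fucose already on the receptor, which generally favours signalling from Delta over signalling from Jagged ligands. In vessels, Dll4 and Notch4 are largely endothelial and Notch3 is largely a gene of pericytes and smooth muscle cells.

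The study compared tissue stroma after tumour formation by circulating tumour cells (CTCs) with stroma of tumour-free mice. Female NSG mice, an immunodeficient strain that lacks B, T and NK cells, were 6 to 8 weeks old, received estrogen pellets and were injected with 100000 CTCs labelled with GFP and luciferase into the left heart ventricle. Cells without GFP were sorted from the dissociated tissue, and RNA came from 50000 of them. The same protocol text stands under the control libraries, and the sources used here do not say whether control mice carried pellets. Exposed libraries numbered 13 in bone (2 of line Brx07, 4 of Brx50, 7 of Brx68), 7 in lung (2 of Brx07, 1 of Brx42, 3 of Brx50, 1 of Brx68) and 3 in brain (all Brx50). Tumour-free control libraries numbered 3 in bone, 2 in lung and 2 in brain. Each CTC line is the culture of a single patient's tumour cells, and several libraries of different tissues share a label code, as do the 2 Brx07 bone libraries (leg and skull), and these are counted as 2 libraries. The labels do not tie any library to a mouse of its own, so the p-values measure only the spread between these libraries.

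Libraries held 4289012 to 15646947 counts, and no member had fewer than 20 counts in any library. The sort was by absence of GFP alone, so each library is a mixture, and in such bulk samples fewer cells of a type and less RNA per cell cannot be told apart. Summed over the 7 neutrophil markers, bone controls held 28355 to 37278 counts per 1000000 counts of the library (CPM) and exposed bone libraries 2.69 to 51868. The 12 endothelial markers summed to 2240 to 2702 CPM in control bone and 542 to 3989 in exposed bone, to 6802 to 8110 in control lung and 245 to 9040 in exposed lung, and to 317 to 487 in control brain and 356 to 576 in exposed brain. Osteoblast markers summed to 326 to 439 CPM in control bone and 40.8 to 57.9 in the other control tissues, alveolar markers to 1484 to 2163 in control lung and 14.7 to 78.7 in the other control tissues, and B and T cell markers to at most 14.2 in any library. Brain controls held 2151 to 2816 CPM over 6 neuronal markers, where exposed brain held 475 to 1769. Pituitary markers summed to 9.59 to 9.89 CPM in control brain and 662 to 1995 in exposed brain. The lung exposed libraries 1 and 6 stood apart by low endothelial sums of 1796 and 245 CPM, and several exposed bone libraries by markers of other tissues. Olfactory epithelium markers summed to 2446 CPM in bone exposed library 2, from the skull, and to 614, 706 and 162 in libraries 4, 5 and 9, against 31.9 to 37.1 in bone controls. Pituitary markers summed to 696, 165, 80.0 and 77.5 CPM in bone exposed libraries 6, 4, 5 and 9, against 0.282 to 0.847 in bone controls. Mucous gland markers summed to 2.30 to 21651 CPM in exposed bone and 25.9 to 2202.5 in bone controls. Skeletal muscle markers summed to 60.8 to 1962 CPM against 75.4 to 88.8, and epithelial markers to 9.71 to 6360 against 508 to 1065. The part of these mixtures in the results below was not tested.

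RefSeq promoter sequence of the GRCm38.p6 build was found for 8 of the 10 members. The 250 bases before the start were searched on both strands for TGGGAA, the core of the RBPJ motif. Of those 8 genes, Lfng was the only one to hold it, and it holds it at 135 bases before the start on the minus strand and at 108 bases on the plus strand. Of all 32851 promoters of the same length, 21.6% hold at least 1 copy. The Lfng window is shown because Lfng is the gene with the clearest separation in bone, beside that of Hes5, a well-studied RBPJ target, where copies stand at 226 bases (minus strand) and 82 bases (plus strand). Of the other windows searched for comparison, that of the target Hey2 holds 1 copy and those of Nrarp, another target, and Rfng hold none. Capitals mark TGGGAA, or TTCCCA where the motif reads on the minus strand. The Lfng window is chr5:140607091-140607340 and that of Hes5 is chr4:154960673-154960922, both on the plus strand. The Lfng window ends just before the start in RefSeq, which lies downstream of the start in GENCODE, so its last 21 bases are inside the gene as GENCODE places it. A match of letters is a description and shows no binding.
Lfng: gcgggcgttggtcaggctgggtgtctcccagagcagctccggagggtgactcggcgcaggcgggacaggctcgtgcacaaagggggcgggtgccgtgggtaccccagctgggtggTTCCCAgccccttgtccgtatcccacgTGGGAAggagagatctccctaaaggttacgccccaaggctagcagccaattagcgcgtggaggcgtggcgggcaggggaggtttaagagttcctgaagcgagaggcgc
Hes5: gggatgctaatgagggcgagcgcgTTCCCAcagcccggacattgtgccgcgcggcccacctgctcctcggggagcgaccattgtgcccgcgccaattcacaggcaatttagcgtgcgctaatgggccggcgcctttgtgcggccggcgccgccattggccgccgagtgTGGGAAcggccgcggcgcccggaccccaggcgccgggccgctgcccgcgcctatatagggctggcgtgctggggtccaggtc

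In the tumour-free libraries, most of the 10 genes were lowest in brain and highest in lung. Of the 10 genes, 9 were higher in bone than in brain and 9 were higher in lung than in brain, while 6 were higher in lung than in bone and 2 higher in bone than in lung (edgeR's quasi-likelihood test, Benjamini-Hochberg adjusted p under 0.05). Over all 18859 genes tested, 37% were called higher in bone than in brain and 38.9% lower, 34.6% higher in lung than in brain and 37.4% lower, and 22.5% higher in bone than in lung and 22.3% lower. The median log2 fold change of the 10 genes was 2.65 for bone against brain and 3.08 for lung against brain, where the medians over all genes tested were -0.04 and -0.06. For bone against lung it was -0.77, beside 0.00 over all genes.

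Lfng, which elongates O-fucose on Notch receptors in the Golgi, lies at chr5 140607320 to 140615545 on the plus strand (GRCm38). It measured 157 and 161 CPM in control lung, 80.5, 105 and 111 CPM in control bone, and 23.0 and 32.4 CPM in control brain. The groups did not overlap, and lung was the highest of them. Lung exceeded brain 6.45-fold (log2 fold change 2.69, SE 0.18, edgeR adjusted p = 4.4e-08), bone exceeded brain by 1.97 on the log2 scale (SE 0.17), and bone lay below lung (-0.72, SE 0.15, edgeR adjusted p = 0.00159).

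The receptors had different orders of tissues. Notch1, a receptor of many tissues including endothelium and blood progenitors, measured 539, 565 and 597 CPM in control bone and 529 and 686 CPM in control lung, against 82.3 and 118 CPM in control brain. Bone and lung overlapped (log2 fold change -0.13, SE 0.16, edgeR adjusted p = 0.557), and they exceeded brain 6.22-fold and 6.80-fold. Notch2, a receptor also used by myeloid cells and by osteoclast precursors, measured 651, 712 and 718 CPM in bone, 821 and 912 CPM in lung, and 83.1 and 100 CPM in brain. Its difference between bone and lung was close to the threshold (-0.35, SE 0.14, edgeR adjusted p = 0.0532) and fell on either side of it under other settings. The adjusted p was 0.0124 to 0.0467 with RLE or upper quartile scaling, no filter, DESeq2 or limma-voom, 0.140 with a replicate block and 0.0777 to 0.328 with 1 library left out. Notch3, the receptor of mural cells, was highest in bone, with 179, 243 and 261 CPM against 69.8 and 88.5 CPM in lung and 58.8 and 104 CPM in brain. Bone exceeded lung by 1.49 (SE 0.23, edgeR adjusted p = 0.000372), while lung and brain overlapped (0.12, SE 0.25, edgeR adjusted p = 0.672). Without the second brain control, lung was called higher than brain for Notch3 (0.60), and without the first the sign turned (-0.23). Mural markers summed to 1153 to 1867 CPM in control bone, 381 to 525.9 in control lung and 407 to 498 in control brain. Notch4, which is expressed mainly in endothelium, measured 29.5, 30.3 and 31.9 CPM in bone, 81.4 and 92.7 CPM in lung, and 3.19 and 5.86 CPM in brain. These groups did not overlap, and the order of lung, bone and brain was also that of the summed endothelial markers.

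Divided by merged exon length, so that levels of different genes can be set side by side, Notch2 made up 47.3% ± 3.31 (SD, n = 3) of the summed receptor level in control bone and 56.0% ± 5.89 (SD, n = 2) in control lung. In control brain Notch3 had the largest share at 37.8% ± 4.84 (SD, n = 2), beside 33.1% ± 4.67 for Notch2. Notch3 held 20.6% ± 3.36 in control bone and 6.80% ± 0.928 in control lung. Notch4 stayed the smallest share in bone (2.78% ± 0.0312) and brain (2.10% ± 0.323), and in lung it held 7.51% ± 0.454.

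Among the ligands, Dll4, the endothelial Delta ligand that limits vessel sprouting, showed the widest span of the 10 genes. It measured 197 and 266 CPM in control lung, 86.4, 92.9 and 120 CPM in control bone and 5.10 and 7.06 CPM in control brain. Lung exceeded brain 42.4-fold (log2 fold change 5.40, SE 0.24, edgeR adjusted p = 1.6e-09) and bone exceeded brain 17.9-fold. Dll1, a Delta ligand with roles in somite formation and in arteries, measured 45.6 and 68.7 CPM in lung, 23.4, 23.9 and 31.8 CPM in bone, and 6.06 and 6.13 CPM in brain, again with lung highest. Jag1, the Jagged ligand of vessels and of many epithelia, had another order, with 122, 143 and 162 CPM in bone, 94.7 and 98.6 CPM in lung and 22.5 and 27.0 CPM in brain. Bone exceeded lung for Jag1 by 0.53 (SE 0.13, edgeR adjusted p = 0.00499), and without the second lung control the adjusted p was 0.0508. Per length, Dll4 made up 66.4% ± 2.25 (SD, n = 2) of the 3 ligands in control lung, 45.7% ± 4.85 (SD, n = 3) in control bone and 21.6% ± 2.20 (SD, n = 2) in control brain. Jag1 made up 18.7% ± 3.89, 43.3% ± 5.67 and 58.4% ± 0.184 in the same order.

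The target genes did not share an order of tissues. Hes1, a transcriptional repressor and a direct target of Notch signalling, measured 80.3 and 92.8 CPM in control lung, 42.9, 50.5 and 56.1 CPM in control bone, and 7.65 and 8.93 CPM in control brain. Hey1, a related repressor prominent in arterial endothelium, measured 71.9 and 87.8 CPM in lung, 23.2, 23.6 and 27.7 CPM in bone, and 33.8 and 36.2 CPM in brain. Hey1 was thus the only member with a level in brain above that in bone, and this difference was small (-0.35, SE 0.14, edgeR adjusted p = 0.0405). It lost its call in 7 other settings, among them the fit with a replicate block (adjusted p = 0.128). Lung exceeded bone for Hey1 by 3.28-fold and for Hes1 by 1.77-fold.

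**Figure D1:**
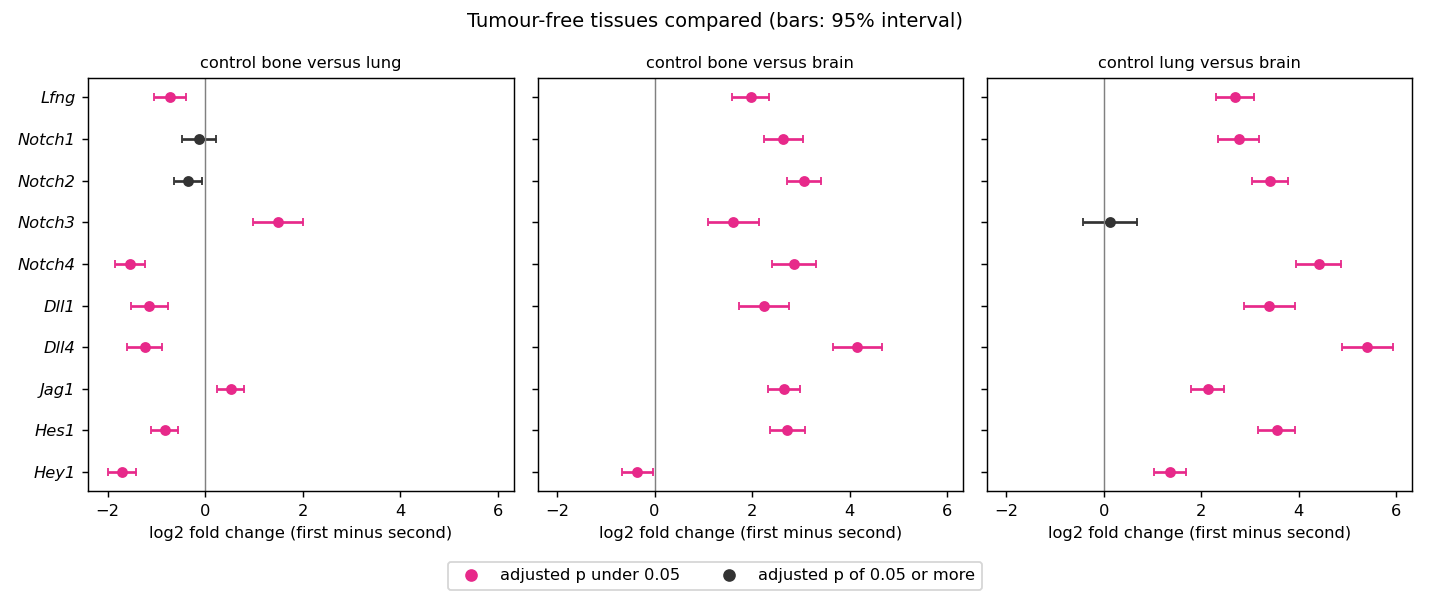
Differences between tumour-free tissues for the 10 genes: the x axis is the log2 fold change from edgeR, first tissue minus second, and bars are 95% intervals. Pink points passed an adjusted p of 0.05. The 9 pink points right of 0 in the middle panel reach 4.16 for Dll4, and Hey1 lies left of 0 at -0.35.

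In bone, Lfng was lower in each of the 13 exposed libraries than in each of the 3 controls. Controls measured 80.5, 105 and 111 CPM (98.8 ± 16.1, mean ± SD, n = 3). Exposed libraries ranged from 22.3 through a median of 36.7 to 75.6 CPM (40.05 ± 14.1, n = 13). The fitted log2 fold change was -1.32, or 2.503-fold lower, and leaving out each of the 16 libraries in turn gave -1.44 to -1.24. As Lfng was chosen with these values in view, this range is a description only. The lowest library, exposed 7 of line Brx68, held 22.3 CPM. The exposed library nearest the controls was number 10, also Brx68, at 75.6 CPM, and the next were number 1 (Brx07, leg) at 54.3 and number 5 (Brx50) at 51.4. Of 18278 genes tested, 37 (0.202%) had all exposed bone libraries below all controls and 6 (0.0328%) had all above. Lfng was the only member among them, and as its choice rested on this contrast, nothing is read from that count.

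The lower level was found with each CTC line. The Brx07 libraries measured 31.9 (skull) and 54.3 CPM (leg), the 4 Brx50 libraries 40.4 ± 8.20 CPM (SD) and the 7 Brx68 libraries 38.95 ± 17.8 CPM (SD). Without the skull library, which shares its label code with the leg library, the log2 fold change in bone was -1.24. Between Brx68 and Brx50 the fitted log2 difference was 0.05 (SE 0.35).

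Neutrophil markers varied widely among the exposed bone libraries. The 5 exposed libraries whose neutrophil sum exceeded 10000 CPM (18386 to 51868) held 34.2 to 75.6 CPM of Lfng with a median of 51.4. The 8 libraries with lower sums (2.69 to 2274) held 22.3 to 43.1 CPM with a median of 34.3. The 2 ranges overlap. All 3 controls had neutrophil sums above the same cut, at 28355 to 37278 CPM. The part of neutrophil content in the Lfng difference between exposed and control bone was not tested. Libraries 1, 4 and 10, with the highest neutrophil sums of the exposed (35621 to 51868 CPM), held 54.3, 41.4 and 75.6 CPM of Lfng. They had endothelial sums of 542, 662 and 905 CPM, below the controls' 2240 to 2702.

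**Figure D2:**
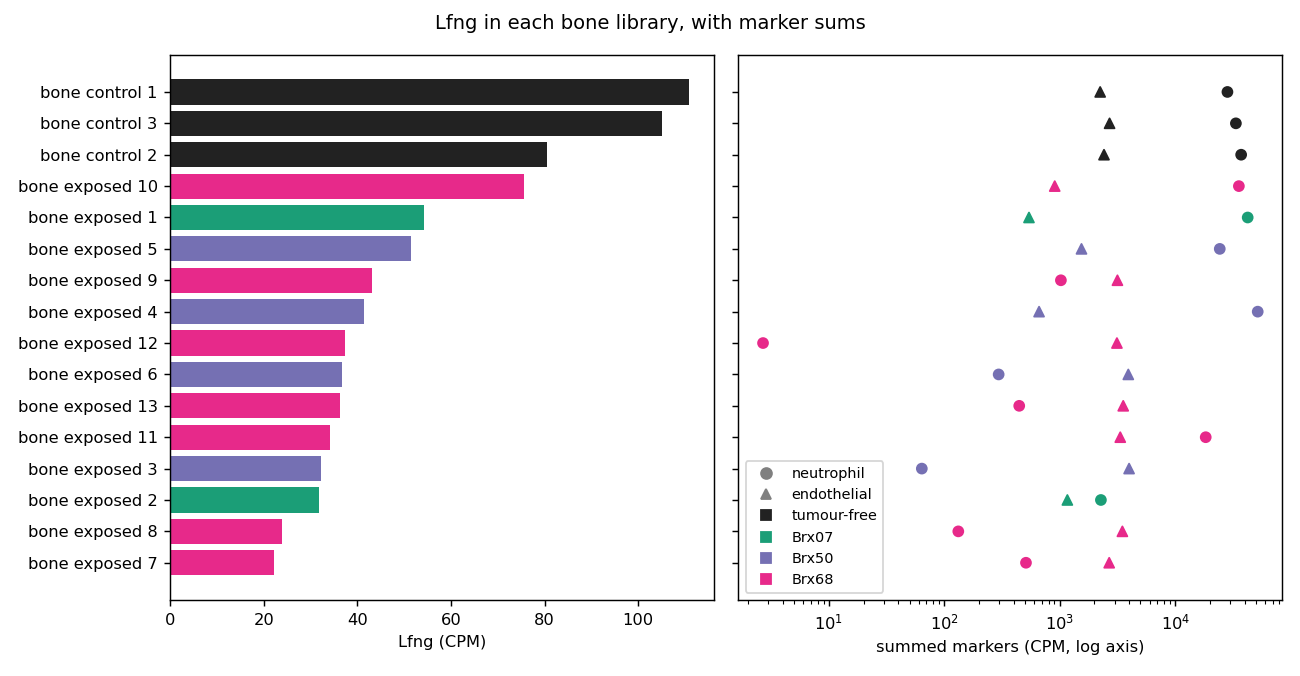
Lfng in each of the 16 bone libraries (left, CPM, bars from 0) and the summed neutrophil (circles) and endothelial (triangles) markers of the same libraries (right, CPM on a log axis), coloured by CTC line. The 3 control bars, 80.5 to 111 CPM, are longer than all 13 exposed bars, and neutrophil sums of exposed libraries run from 2.69 to 51868 CPM.

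The other fringe enzymes give a setting for this difference. Mfng (manic fringe) measured 24.1 ± 1.96 CPM (SD, n = 3) in control bone and 17.8 ± 4.76 CPM (SD, n = 13) in exposed bone, with a log2 fold change of -0.44 (SE 0.29). Rfng (radical fringe) measured 20.5 ± 1.75 and 22.8 ± 6.27 CPM in the same groups. Neither passed the test, and no gene of the 18278 tested in bone did, so this does not set them apart from Lfng. Per length, Lfng made up 70.0% ± 2.35 (SD) of the 3 fringe enzymes in control bone and 49.9% ± 11.8 in exposed bone. In control lung its share was 69.9% ± 0.486 and in control brain 38.9% ± 3.26, where Rfng held 53.7% ± 3.58.

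The expression profiles nearest to that of Lfng over the 16 bone libraries, among 10192 genes, were those of Chst12 (Pearson r = 0.88 on log2(CPM + 1)), Atrn (0.88), Mapk7 (0.88), Pxylp1 (0.87), Lasp1 (0.87) and Dirc2 (0.87). These points share the split between exposed and control libraries. Chst12, a chondroitin sulfotransferase, measured 87.1 ± 5.06 CPM (SD) in control bone and 41.6 ± 23.0 CPM (SD) in exposed bone, and here the groups overlapped, since exposed libraries reached 89.3 CPM. It lies on the same chromosome, at chr5 140505550 to 140525724, 81596 bases from Lfng with 1 coding gene between them. Atrn, Pxylp1 and Dirc2 overlapped between the groups too. Mapk7 (exposed at most 57.4 CPM, controls at least 65.2) and Lasp1 (exposed at most 345, controls at least 348) did not, as Lfng did not. Over all 30 libraries and 10802 genes genes near to Lfng were Plekha2, Lyn, Gosr2, Gpr35 and Ikbkb, each with r of 0.87. Lyn, a kinase of myeloid and B cells, ranked lung, bone and brain as Lfng did in the controls, with 459 ± 48.4, 174 ± 16.2 and 28.2 ± 9.46 CPM (SD).

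For the other 9 genes, exposed and control bone overlapped, and none passed the test in edgeR. No gene of the 18278 tested did (0%), and 458 had an unadjusted p under 0.05. DESeq2 called 17 genes and limma-voom with quality weights 2844. The median log2 fold change of the 10 members was -0.03, beside 0.08 over all genes. After Lfng, the receptors Notch1 and Notch2 had the most exposed libraries below all controls. Notch2 measured 244 to 729 CPM in exposed bone with a median of 451 (control 651 to 718), a log2 fold change of -0.51 (SE 0.26, edgeR adjusted p = 0.97). Notch1 measured 235 to 940 CPM with a median of 376 (control 539 to 597), a log2 fold change of -0.39 (SE 0.31, edgeR adjusted p = 0.97). Limma-voom called both lower, Notch2 by -0.62 (adjusted p = 0.00779) and Notch1 by -0.48 (adjusted p = 0.0436), among 12% of all genes that it called lower.

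The remaining bone values were spread to either side of the controls. Hes1 had the largest positive difference, with 24.5 to 218 CPM and a median of 71.3 in exposed bone against 42.9 to 56.1 CPM in controls (0.74, SE 0.51, edgeR adjusted p = 0.97). Jag1 ranged from 49.0 to 438 CPM (control 122 to 162) and Notch3 from 29.2 to 597 CPM (control 179 to 261). Dll4 ranged from 16.3 to 134 CPM with a median of 101 (control 86.4 to 120), Notch4 from 6.31 to 69.7 CPM (control 29.5 to 31.9), Dll1 from 3.30 to 62.3 CPM (control 23.4 to 31.8) and Hey1 from 3.50 to 56.6 CPM (control 23.2 to 27.7). The exposed libraries 1, 4 and 10, which had the lowest endothelial sums, were also the 3 lowest for Dll4 (20.6, 16.3 and 26.8 CPM), Dll1 (3.30, 6.87 and 8.67 CPM) and Hey1 (3.50, 8.11 and 5.76 CPM). They were the 3 lowest for Notch4 as well, at 6.31, 6.42 and 11.004 CPM. The same held for Jag1 (49.0, 63.2 and 72.4 CPM) and Hes1 (32.9, 25.0 and 24.5 CPM). The part of endothelial content in the values of these libraries was not tested. These libraries also had the highest neutrophil sums of the exposed bone. Lfng was not low there: numbers 10 and 1 were its highest exposed libraries.

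The 7 Brx68 and 4 Brx50 libraries of exposed bone were compared with the same test, and no difference among the 10 genes passed it. Log2 differences ran from -0.11 for Notch4 to 0.73 for Hes1 (SE 0.51), and edgeR called 0% of 19052 genes. DESeq2 called 44 genes, none of them a member.

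**Figure D3:**
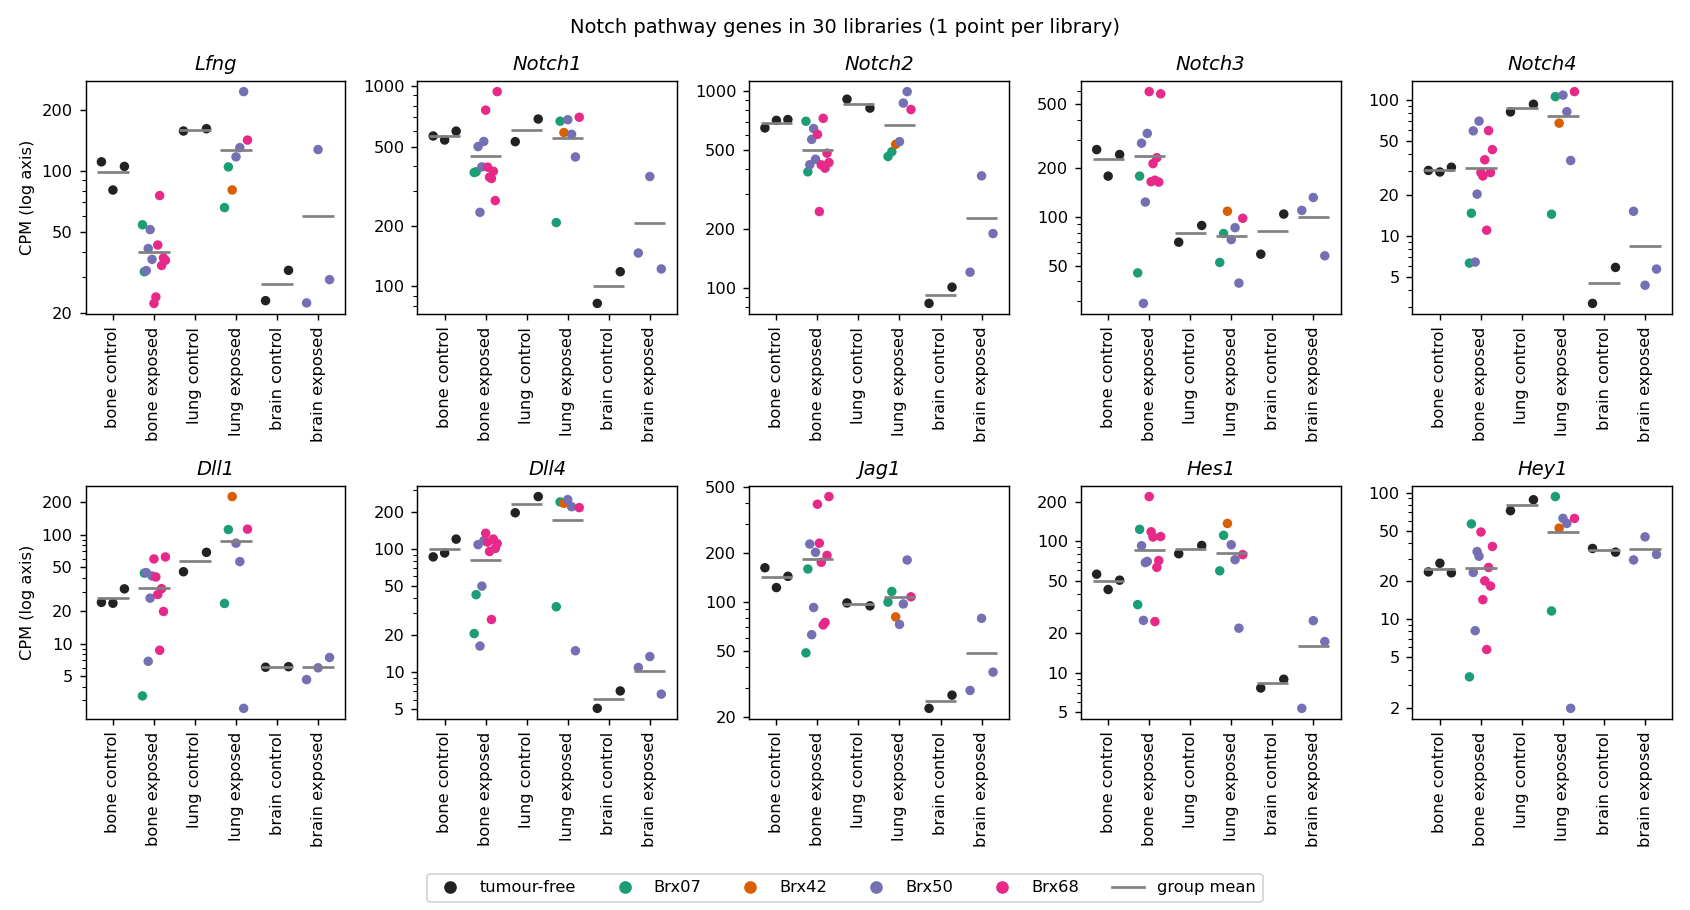
CPM of the 10 genes in all 30 libraries on log axes, by tissue and exposure, coloured by CTC line, with a grey line at each group mean. Lfng is the only panel in which all exposed bone points lie below the 3 control points (22.3 to 75.6 against 80.5 to 111 CPM). In lung, 1 Brx07 and 1 Brx50 library drop to 34.04 and 15.0 CPM for Dll4.

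In lung, no difference of a member between the 7 exposed and 2 control libraries passed the test. EdgeR called none of 17132 genes (0%), with 118 at an unadjusted p under 0.05, and DESeq2 called 3 and limma-voom 1. The median log2 fold change of the 10 genes was -0.15, beside 0.08 over all genes. Lfng measured 65.9 to 245 CPM with a median of 117 (control 157 and 161), and 6 of the 7 exposed libraries lay below both controls (-0.25, SE 0.46, edgeR adjusted p = 1.00). The exception was exposed library 6, of line Brx50, at 245 CPM. The log2 fold change was -0.56 without library 6 and -0.15 without library 1. Without libraries 1 and 6 no member was called either. Of all genes tested, 2.01% had every exposed lung library below both controls and 1.02% had every one above, and no member was among them.

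The exposed lung libraries 1 (Brx07) and 6 (Brx50), with endothelial sums of 1796 and 245 CPM against 6612 to 9040 in the 7 other lung libraries, were also the lowest for the endothelial members. Dll4 measured 34.04 and 15.0 CPM there and 197 to 266 CPM in the others. Hey1 measured 11.6 and 1.98 CPM there against 52.4 to 93.0 CPM. Notch4 measured 14.4 and 35.8 CPM against 67.3 to 115 CPM, and Dll1 measured 23.3 and 2.54 CPM against 45.6 to 223 CPM. Between these 2 libraries Notch4 did not follow the endothelial sum, as it was higher in library 6, where that sum was lower. The 2 libraries were the lowest of the lung for Notch1 (209 and 444 CPM), Notch3 (52.3 and 39.0 CPM) and Hes1 (59.5 and 21.8 CPM) too. They went apart for the remaining members: library 6 had the highest Lfng (245 CPM), Jag1 (180 CPM) and Notch2 (997 CPM) of the lung. Library 1, whose fibroblast markers summed to 42319 CPM, had the lowest Lfng (65.9 CPM). Without both libraries, the log2 fold change of Dll4 went from -0.41 to 0.02 and that of Notch4 from -0.19 to 0.14. The single Brx42 library had the highest Dll1 of the series at 223 CPM, a value with no replicate.

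**Figure D4:**
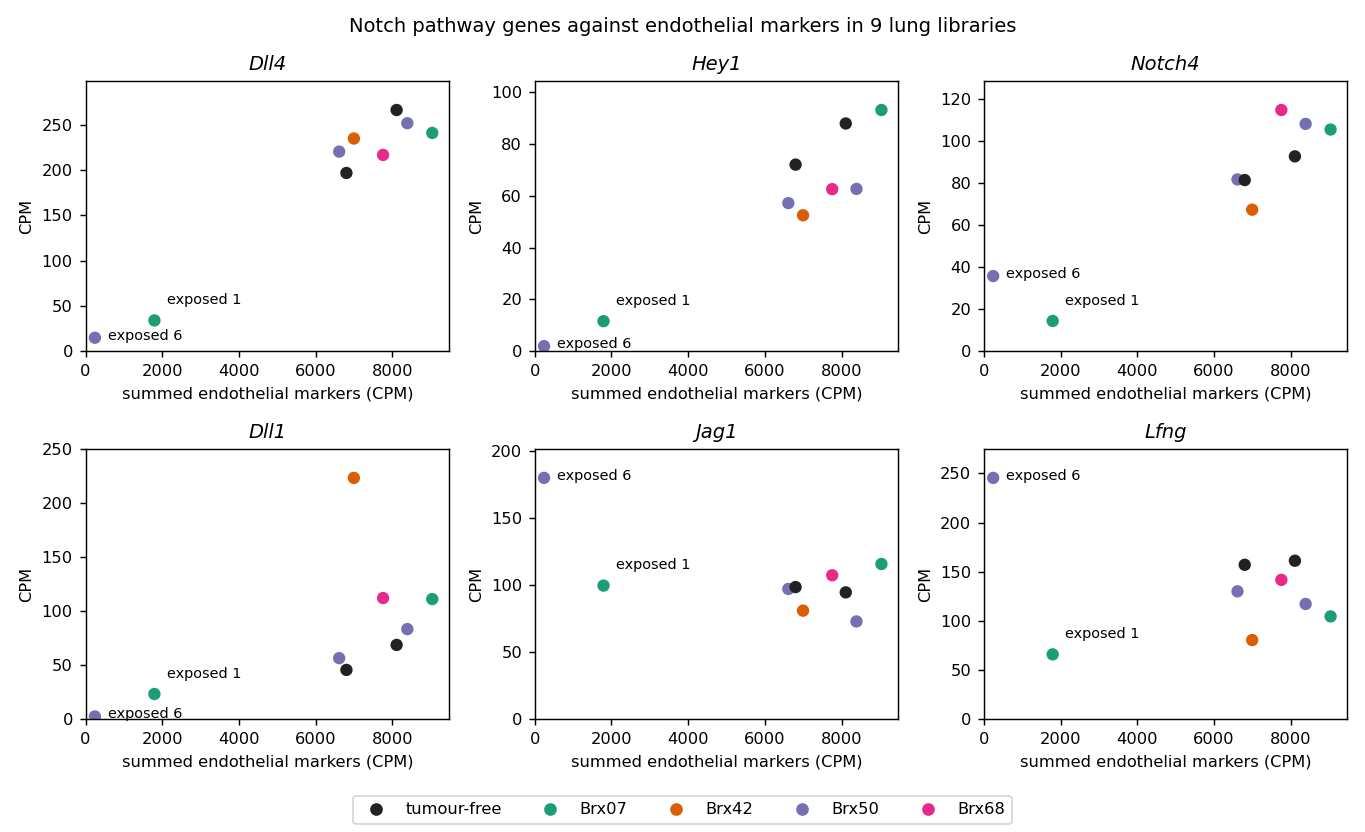
CPM of 6 members (y axis) against the summed CPM of 12 endothelial markers (x axis) in the 9 lung libraries, 1 point per library, coloured by CTC line. Exposed libraries 1 and 6 lie at the left, at 1796 and 245 CPM, low for Dll4, Hey1, Notch4 and Dll1 but not for Jag1, and library 6 is the highest for Lfng at 245 CPM.

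In brain, most of the 10 genes were fitted higher in the exposed libraries than in the 2 controls. The 3 exposed libraries were all of line Brx50, and no member passed the test. The median log2 fold change of the 10 genes was 0.86, beside 0.03 over all genes, and 8 were fitted higher. EdgeR called 1 of 16734 genes (0.00598%), and 2272 genes had an unadjusted p under 0.05. DESeq2 called 712 genes and limma-voom 845. Notch2 measured 120, 188 and 371 CPM after exposure and 83.1 and 100 CPM in controls, without overlap (1.23, SE 0.46, edgeR adjusted p = 0.334). Limma-voom called Notch2 higher (1.03, adjusted p = 0.0418), among 4.43% of genes that it called higher. Notch1 measured 122, 147 and 354 CPM against 82.3 and 118 CPM (0.98, SE 0.48), and Jag1 28.9, 37.4 and 79.5 CPM against 22.5 and 27.0 CPM (0.90, SE 0.44). These 3 members had every exposed library above every control, as had 19.9% of all genes tested, and 18.6% of genes had every exposed library below.

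Exposed brain library 2 held the highest value of the brain for Notch2, Notch1, Jag1, Notch3, Dll4, Hes1, Hey1 and Lfng, and its neutrophil markers summed to 3560 CPM against 25.2 and 119 in the other exposed libraries and 15.1 to 15.7 in controls. Lfng measured 22.4, 127 and 29.1 CPM in the exposed libraries and 23.0 and 32.4 CPM in controls, so that the difference (1.03, SE 0.73, edgeR adjusted p = 0.58) rested on library 2 and became -0.12 without it. Without that library the log2 fold change of Notch2 was 0.73 in place of 1.23, that of Jag1 0.40 in place of 0.90 and that of Notch1 0.40 in place of 0.98. Microglial markers summed to 490 to 642 CPM in control brain and 648 to 2382 in exposed brain, and macrophage markers to 332 to 516 and 1058 to 2225. Fibroblast markers went from 125 to 136 CPM in control brain to 183 to 1807 in exposed brain, and oligodendrocyte markers from 9422 to 16858 to 19713 to 32786, both without overlap. The other members overlapped between groups: Hes1 at 5.36, 24.9 and 17.3 CPM against 7.65 and 8.93, Dll4 at 10.96, 13.4 and 6.65 against 5.10 and 7.06, Hey1 at 29.4, 44.7 and 32.5 against 36.2 and 33.8.

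**Figure D5:**
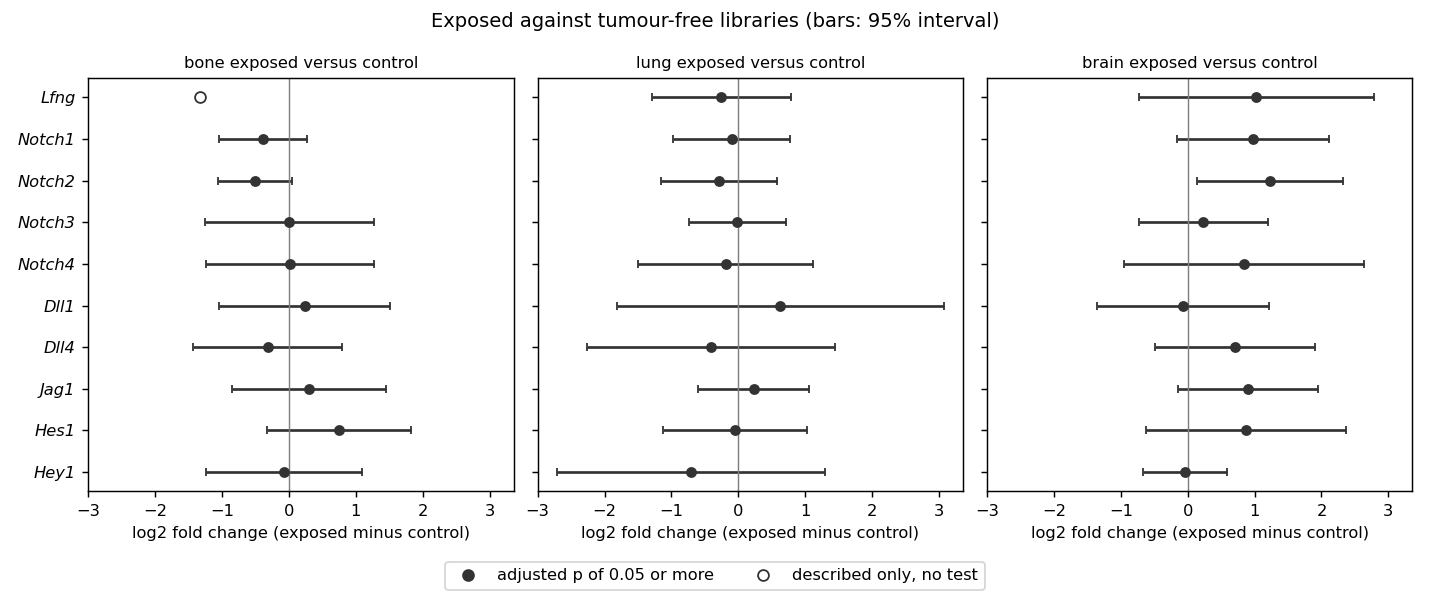
Exposed against tumour-free libraries for the 10 genes in bone, lung and brain: the x axis is the log2 fold change from edgeR, exposed minus control, bars are 95% intervals, and the open point is Lfng in bone, described with no test. No filled point passed an adjusted p of 0.05. Lfng in bone lies at -1.32, and the brain points reach 1.23 for Notch2.

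Whether exposure acted differently between tissues was tested as a difference of differences in a fit of all 30 libraries. EdgeR called 0% of 21233 genes for bone against lung, 0% for bone against brain and 0% for lung against brain. The fitted difference for Lfng was -2.29 between bone and brain and -1.05 between bone and lung, given as values only. Without brain exposed library 2 the former became -1.08. For Notch2 the difference between bone and brain was -1.69 (SE 0.53, edgeR adjusted p = 0.466, unadjusted p = 0.0034), which limma-voom called (-1.66, adjusted p = 0.00482, where it called 4.52% of 21233 genes lower), and between lung and brain it was -1.50 (SE 0.57, edgeR adjusted p = 1.00), which limma-voom also called (-1.43, adjusted p = 0.0161, where it called 1.36% of genes lower).

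A list of 47 further pathway genes (other ligands, fringe and glycosylation enzymes, proteases of cleavage, nuclear partners, genes of trafficking and turnover, and other targets) was counted in the same fits. Exposure gave 0 calls of 45 tested in bone, 0 of 43 in lung and 0 of 45 in brain by edgeR, of which 0, 0 and 6 had an unadjusted p under 0.05. In brain the share of 6 of 45 was close to that over all genes tested, whose count is given above. Nothing is read from it. The list's median log2 fold changes were -0.01, 0.06 and 0.28, beside 0.08, 0.08 and 0.03 over all genes. In bone the smallest p-values belonged to Numb (-0.36, SE 0.19), an inhibitor of Notch, to Maml1 (-0.40, SE 0.24), a coactivator of the RBPJ complex, and to Mfng. In lung they belonged to Numbl, Dtx4 and Dtx3, with Dtx4 at 1.01 (SE 0.92). In brain they belonged to Ncstn (0.92, SE 0.27), a subunit of γ-secretase, to Mib1 (-0.76, SE 0.28), the ligase that drives ligand endocytosis, and to Adam17 (0.80, SE 0.31), a shedding protease. Ncstn measured 36.2 ± 6.60 CPM (SD, n = 2) in control brain and 71.6 ± 15.3 CPM (SD, n = 3) in exposed brain.

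Between tumour-free tissues, the wider list was counted by role, and no test compared the roles. Against brain, 8 of 10 cleavage genes were higher in bone and none lower, and 9 of 10 were higher in lung and 1 lower. Of the 11 genes of trafficking and turnover, 8 were lower in bone than in brain and 2 higher, and 7 were lower in lung than in brain and 2 higher. Of the 12 nuclear genes, 6 were higher and 1 lower in bone than in brain, and 9 were higher and none lower in lung than in brain. Of the 4 fringe and glycosylation enzymes, 2 were higher and 2 lower in bone than in brain, and 2 higher and 1 lower in lung. For the 4 other ligands the counts were 1 higher and 1 lower in bone, and 1 and 2 in lung, and for the 4 other targets 1 and 2 in both. Over the whole list of 45 tested, 20 were higher and 14 lower in bone than in brain, 24 higher and 13 lower in lung than in brain, and 7 higher and 14 lower in bone than in lung, to be read beside the shares of all genes given above for the members. The ligases Neurl1a and Dtx1 had the largest differences of those named. Neurl1a measured 222 ± 5.14 CPM (SD, n = 2) in brain, 13.8 ± 1.64 in lung and 7.68 ± 0.961 in bone, 26.0-fold lower in bone than in brain. Dtx1 measured 94.8 ± 8.73 CPM in brain, 3.66 ± 1.00 in lung and 6.88 ± 1.65 in bone, 23.0-fold lower in lung than in brain. In the other direction, Mfng was 10.3-fold and Adam17 5.48-fold higher in lung than in brain, and Furin and Maml1 were 5.24-fold and 5.16-fold higher in bone than in brain. Fbxw7, which marks the cut receptor for destruction, was 4.24-fold lower in bone than in brain. Between bone and lung, Mfng, Maml2, Numb, Aph1a and Kat2b were higher in lung, by 1.75-fold for Kat2b to 2.32-fold for Mfng.

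Across all 30 libraries the members fell near different genes. Dll4 was nearest to the endothelial genes Pecam1 and Cdh5 (both r = 0.98) and to Gimap6 (0.97), and Notch4 to Arhgap31 (0.95), Scarf1 (0.94) and Esam (0.93), of which Esam is also endothelial. Notch3 was nearest to Gli1 (0.89), Rasd1 (0.88) and Myl9 (0.86), the last a myosin light chain of smooth muscle. Notch2 was nearest to Stat6 (0.96), Fam129a (0.95) and Iqgap1 (0.95), Notch1 to Sigirr (0.91), Rela (0.90) and Pnpla2 (0.90), and Dll1 to Jup, Spry4 and Efnb2 (each 0.94). Jag1 was nearest to Sdc1 (0.92), Palld (0.91) and Zfp36l1 (0.89), Hes1 to Id3, Kctd11 and Atf3 (each 0.93), and Hey1 to Tmem44 (0.92), Pde9a (0.90) and Trib2 (0.90). Among the members themselves Notch4 and Dll4 were the most alike (0.91), and the lowest r, a weak negative one, was that of Lfng and Notch3 (-0.33). These correlations describe libraries that differ in tissue, depth and cell mixture.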

How the data were processed

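Whole-number counts were taken as deposited, from a single table of 43346 Ensembl mouse gene IDs by 30 libraries. The submitters' processing notes name STAR 2.5.2b, HTSeq and, without a role for any, the builds GRCm38.p5, mm10, GRCh37 and hg19. They give no annotation, strand setting or way of separating human reads. Reads of Notch1, Notch2, Notch3, Notch4, Dll1 and Dll4 therefore cannot be told from those of the annotated genes that overlap them, while Lfng, Jag1, Hes1 and Hey1 overlap none. Symbols and coordinates came from GENCODE M21 (GRCm38), which named 42462 IDs. The other 884 held 0.132% of the counts and stayed in the tests.

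The main test was the quasi-likelihood F-test of edgeR 4.0.16 (R 4.3.3), robust and two-sided, after filterByExpr and TMM scaling. P-values were adjusted by Benjamini-Hochberg over all genes tested, with 0.05 as the threshold. Each tissue was fitted alone for exposed against control, the 7 controls together for tissues, and all 30 libraries for differences of differences. A standard error is the log2 fold change divided by the square root of F. CPM are counts per 1000000 of the unscaled library total, given with SD, and levels per length divide by merged exon length. Alternatives were RLE and upper quartile scaling, no filter, DESeq2 1.42.0, limma-voom (limma 3.58.1) with quality weights, 1 fit of all libraries, a replicate block, no skull library and leaving out each library. Leaving out lung exposed libraries 1 and 6 was added after seeing the data. The edgeR fit was also run on simulated counts with known changes. These were drawn gene by gene without the cell mixtures of these libraries, so nothing about the present results is read from that run.

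The members, the 47 further pathway genes and the 22 marker lists were chosen with earlier results of these data known. All members are named. Of the further genes, the text names up to 5 per comparison with the smallest p among those past the threshold, or the 3 with the smallest p where none passed. Mfng and Rfng (fringe levels) and Hes5 (promoter) are named beside Lfng outside that rule. Genes of like profile are the 6 (Lfng) or 3 (other members) with the highest Pearson r of log2(CPM + 1) and a mean of at least 10 CPM, of which 1 is not reported here. Exposed replicate numbers follow accession order. Control titles and descriptions of brain give different numbers, so numbers pair no samples across tissues with certainty. Libraries of the same group all differed by more than counting noise, with a chi-square of 9.64 per degree of freedom or higher for each pair (genes of 40 or more summed counts).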

Additional observations from a re-analysis of the deposited data

Results flagged for a closer look

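Each group of 4 to 10 libraries was searched for a member whose highest or lowest library lies far from the rest of its group. Of 30 pairs of a group and a member tested, 4 held one, and chance flags about 1 in 20. All 4 came from lung exposed library 6 and bone exposed library 10, so they are not independent of one another. In exposed lung, library 6 (Brx50) held 245 CPM of Lfng, where the other 6 libraries held 65.9 to 142, and 180 CPM of Jag1, where the others held 73.0 to 116. The same library had the lowest endothelial sum of the lung, 245 CPM. In exposed bone of line Brx68, library 10 held 75.6 CPM of Lfng, where the other 6 held 22.3 to 43.1, and 26.8 CPM of Dll4, where the others held 95.4 to 134. Its endothelial sum was 905 CPM, the lowest of that line, and its neutrophil sum 35621 CPM.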

How the results depend on the processing

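Of 917 recomputed values for 64 member results, 844 kept direction and side of the threshold, 8 lost a call, 13 gained 1 and 52 changed sign, and the cause of these changes was not tested. The number of genes called depended on the tool. For bone exposure it was 0 in edgeR, 17 in DESeq2, 2844 in limma-voom and 1 in the fit of all 30 libraries, and leaving out 1 library gave 0 to 2 (2 without exposed library 8). For lung exposure DESeq2 called 3 and limma-voom 1. For brain exposure it was 1, with 273 without the filter, 712 in DESeq2, 845 in limma-voom, 0 in the fit of all libraries and 0 to 69 with 1 library left out. For differences of exposure effects DESeq2 and limma-voom called 10 and 317 (bone against lung), 108 and 1638 (bone against brain) and 27 and 450 (lung against brain), where leaving out 1 library gave 0 to 22 for bone against brain and 0 to 1 for lung against brain. Between Brx68 and Brx50, DESeq2 called 44.

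Sign changes in bone were Notch3 (-0.0076 without the filter, -0.31 in limma-voom), Notch4 (-0.24) and Dll1 (-0.010) in limma-voom, and Hey1 (0.0018 with RLE scaling, 0.053 with upper quartile scaling, 0.0018 in DESeq2). In lung, limma-voom gave Notch1 0.060, Notch3 0.10, Notch4 0.10, Jag1 -0.0033 and Hes1 0.0060, and leaving out libraries 1 and 6 gave Notch1 0.093, Notch3 0.18, Notch4 0.14, Dll4 0.022, Jag1 -0.017 and Hes1 0.20. In brain, limma-voom gave Notch3 -0.19 and Dll1 0.12. With 1 library left out, values ran in bone from -0.16 to 0.10 for Notch3, -0.11 to 0.14 for Notch4 and -0.17 to 0.021 for Hey1. They ran in lung from -0.26 to 0.072 for Notch1, -0.16 to 0.14 for Notch3 and -0.23 to 0.10 for Hes1. They ran in brain from -0.12 to 1.41 for Lfng, -0.14 to 0.66 for Notch3, -0.28 to 0.069 for Dll1 and -0.20 to 0.064 for Hey1. Between controls they ran from -0.28 to 0.056 for Notch1 (bone against lung) and -0.23 to 0.60 for Notch3 (lung against brain).

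The fit of the controls with a replicate block called 7377 genes for bone against lung, 13524 for bone against brain and 13197 for lung against brain (8456, 14303 and 13577 without it), and among the members it changed the call of Hey1 alone. Deviations of same-numbered controls correlated at 0.02, -0.09 and -0.07. These values cannot decide whether same-numbered controls share a mouse or a batch, as the tissues differ and the brain numbers are uncertain. Each member had at least 20 counts in every library, and the controls numbered 2 or 3 per tissue.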
